A study of Mus musculus with 8 samples.

Results

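The 6 mouse genes described here, *Mitf*, *Tfe3*, *Tfeb*, *Tfec*, *Usf1* and *Usf2*, encode the microphthalmia family (MiT/TFE) and the upstream stimulatory factors (USF). They were chosen by name, because MITF and USF2 are known protein partners of HINT1, and are 6 of the 18533 gene symbols in the count tables. RNA-seq was carried out on mouse aortic smooth muscle cells (MASMCs) in primary culture, 4 samples from wild-type (WT) mice and 4 from *Hint1*-/- mice. All 8 samples received PDGF-BB, a growth factor that drives smooth muscle cells away from the contractile state, at 20 ng/mL for 24 h, so neither genotype has an untreated group here. By the study's methods the donor mice were males aged 4 to 6 weeks, the *Hint1*-/- line is listed apart from the study's smooth muscle Cre knockout, and the adventitia and endothelium were stripped before the cells were released with collagenase. The sources used here do not say whether the 4 samples of a genotype came from separate mice or cultures, so the p-values measure only the spread between these samples, which may be technical.

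MiT/TFE and USF proteins are basic helix-loop-helix leucine zipper (bHLH-zip) factors. They bind DNA as dimers at the E-box CACGTG, and MiT/TFE members pair with each other but not with USF. MITF governs pigment cells, osteoclasts and mast cells, TFEB and TFE3 drive lysosomal and autophagy genes when nutrients are short, TFEC is known from macrophages, and USF1 and USF2 are present in most tissues and act on genes of glucose and lipid metabolism. HINT1, a small nucleotide-binding protein, has been described as holding MITF silent until diadenosine tetraphosphate, made by lysyl-tRNA synthetase, releases it. These factors are controlled largely by binding partners, phosphorylation and movement into the nucleus, none of which an RNA count measures.

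The library totals lay between 20778077 and 20888041 estimated counts. *Hint1*, the targeted gene (chr11:54866383-54870501, plus strand), was counted 2272, 2336, 2364 and 2301 times in the WT samples and 713, 748, 778 and 715 times in the *Hint1*-/- samples. The genotypes were far apart, in the direction of the labels, and the level in *Hint1*-/- cells was 0.321 of that in WT (edgeR quasi-likelihood test, adjusted p = 6.8e-16). The tables give 1 value per gene, so which exons the remaining reads came from was not analysed here.

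Of the 6 factor genes, only *Tfec* passed the test, with a level 1.21-fold higher in *Hint1*-/- cells, and none reached the fold of 1.5 that the study also required. This call was lost with DESeq2 (adjusted p = 0.0862) and without *Hint1*-/- replicate 4 (adjusted p = 0.0667). *Mitf* and *Tfe3* lay at nearly the same level in both genotypes. Calls rest on p-values of the edgeR quasi-likelihood fit, adjusted by Benjamini-Hochberg over all 13535 genes tested, with a limit of 0.05. All 6 members passed the filter on low counts. By this rule 21.5% of all tested genes were called, so that 1 of 6 is near the background. With the fold over 1.5 added, 2.83% of all tested genes were called (1.34% higher and 1.49% lower) against 0 of the 6, and at an unadjusted p under 0.05 edgeR gave 1 of the 6. At the adjusted threshold DESeq2 called 0 and limma-voom 1. The median size of the log2 difference was 0.076 over the 6 genes, 0.088 over all tested genes and 0.075 over the 9994 genes with a mean of 100 to 4000 counts.

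*Tfec* (chr6:16833373-16898441, minus strand) was counted 152, 161, 164 and 155 times in WT and 179, 178, 195 and 204 times in *Hint1*-/- samples. Every *Hint1*-/- sample was above every WT sample. The mean level rose from 7.56 ± 0.247 to 9.11 ± 0.596 CPM (mean ± SD, n = 4 each, with CPM the count scaled to library size), a log2 fold change of 0.27 with a standard error (SE) of 0.077 and a 95% interval from 0.11 to 0.43 (edgeR, adjusted p = 0.0176). An exact two-sided permutation test over the 8 samples gave p = 0.0286, which is the smallest value that 4 against 4 can give. Over the 16 alternative settings the log2 fold change lay between 0.23 and 0.30 and the adjusted p between 0.0176 and 0.0862.

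TFEC is known from the macrophage lineage, and 10 of the 11 genes of a macrophage and osteoclast marker list passed the count filter. The summed level of the 11 genes was 2338 to 2703 CPM in WT and 1913 to 2037 CPM in *Hint1*-/- samples. Of the 10 tested, 7 fell while none rose, where 10.2% of all tested genes fell. *Csf1r*, the receptor for the macrophage growth factor M-CSF, fell from 396 to 305 CPM, and *Cd68*, a lysosomal protein of macrophages, fell from 323 to 238 CPM. *Csf1r* shares 15.1% of its exonic bases with *Hmgxb3* on the opposite strand. The macrophage marker *C1qa* was below the count filter. The highest log2 fold change among the tested markers was 0.58, which was not called. The *Tfec* difference thus had the opposite sign to the median of this marker list, -0.32 on the log2 scale. The part of these markers' cells in the result was not tested. In bulk samples, fewer cells of a type and less RNA per cell cannot be told apart.

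*Tfeb* (chr17:47737030-47792419, plus strand), the factor best known for lysosome biogenesis, was counted 144.3, 130, 130.4 and 145.5 times in WT and 145.1, 144.2, 161.4 and 156.4 times in *Hint1*-/- samples. In CPM the genotypes did not overlap, but *Hint1*-/- replicates 1 and 2 lay just above WT replicates 1 and 4. The means were 6.57 ± 0.417 and 7.30 ± 0.387 CPM, with a log2 fold change of 0.15, an SE of 0.085 and a 95% interval from -0.026 to 0.33. The difference did not pass the test (edgeR adjusted p = 0.224, exact permutation p = 0.0286). *Tfec* and *Tfeb* were 2 of the 6 genes without overlap between genotypes, where 23.0% of all tested genes had none.

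*Mitf* (chr6:97807052-98021349, plus strand), the family member known to bind HINT1, was counted 430, 364, 425 and 396 times in WT and 371, 372, 385 and 453 times in *Hint1*-/- samples. The ranges overlapped, and *Hint1*-/- replicate 4 was the highest of all 8. The means were 19.3 ± 1.50 and 19.1 ± 1.87 CPM, and the fold, 0.986, had a 95% interval from 0.888 to 1.096 (edgeR adjusted p = 0.886, exact permutation p = 0.857). Changes of *Mitf* RNA within that interval were not resolved. Its sign turned when WT replicate 1 or 3, or *Hint1*-/- replicate 1 or 2, was left out, with log2 values that never passed 0.0132.

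*Tfe3* (chrX:7762560-7775202, plus strand), a factor of lysosomal and metabolic genes, was counted 3177, 3011, 3105 and 3087 times in WT and 3096, 3070, 3063 and 3037 times in *Hint1*-/- samples. It was the most deeply counted of the 6, and its *Hint1*-/- range lay inside that of WT. The means were both 148 CPM, with an SD of 3.64 in WT and 1.33 in *Hint1*-/- cells, and the 95% interval of the fold ran from 0.954 to 1.05 (edgeR adjusted p = 0.972, exact permutation p = 0.886).

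*Usf1* (chr1:171411313-171419142, plus strand) was counted 458, 403, 456 and 449 times in WT and 478, 452.2, 494 and 453 times in *Hint1*-/- samples. The groups overlapped, and WT replicate 2 was lowest. The means were 21.1 ± 1.29 and 22.6 ± 0.951 CPM, a log2 fold change of 0.10 with a 95% interval from -0.022 to 0.22 (edgeR adjusted p = 0.246, exact permutation p = 0.114). Without WT replicate 2 the log2 fold change of *Usf1* was 0.056. *Usf1* shares 200 of its exonic bases with *Tstd1* on the same strand. *Tstd1* held at most 2 counts in any sample.

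*Usf2* (chr7:30945248-30956803, minus strand), the USF member known to bind HINT1, was counted 1777, 1745, 1740 and 1765 times in WT and 1662, 1656, 1767 and 1632 times in *Hint1*-/- samples. Here 3 of the 4 *Hint1*-/- samples were below all WT samples, and replicate 3 lay among them. The means were 84.0 ± 1.03 and 80.9 ± 2.77 CPM, a log2 fold change of -0.054 with a 95% interval from -0.13 to 0.019 (edgeR adjusted p = 0.299, exact permutation p = 0.114). *Usf2* overlaps 2 genes of the opposite strand, *Gm17077* by 167 and *Gm44662* by 74 exonic bases, which have no row in the tables. Whether the counting used strand is not stated in the sources used here.

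**Figure D1:**
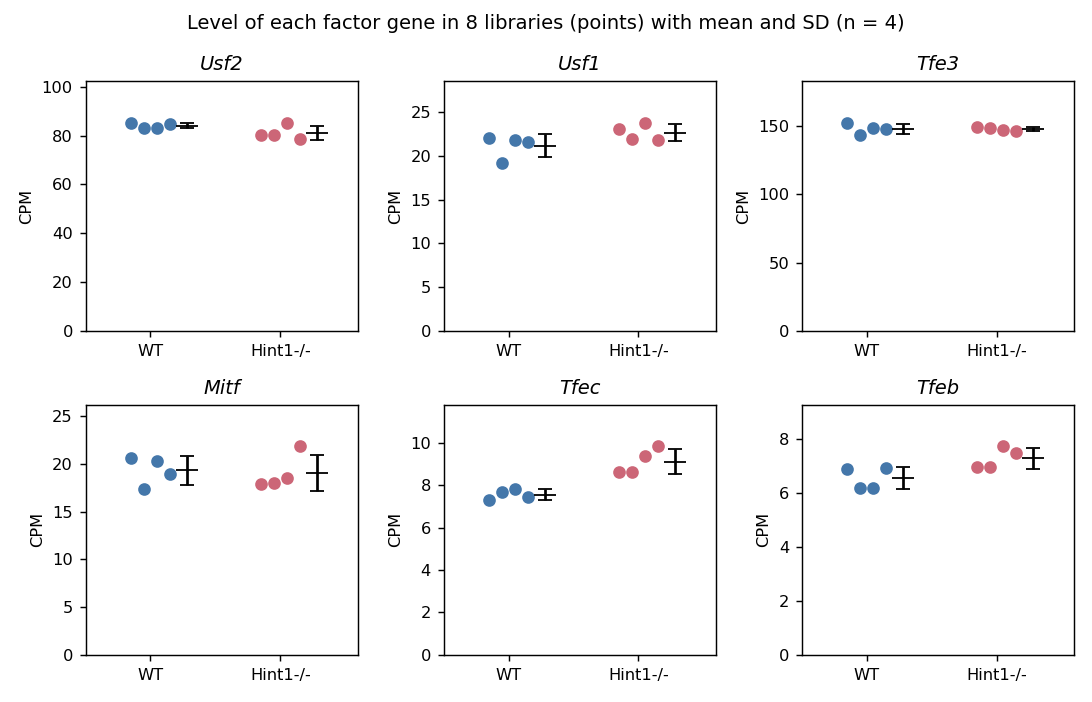
Level of each of the 6 factor genes in CPM (linear axis from 0), with 1 point per library and the mean and SD of 4 libraries beside each group. The WT and Hint1-/- points are apart for Tfec and, narrowly, for Tfeb, and overlap for Mitf, Tfe3, Usf1 and Usf2.

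**Figure D2:**
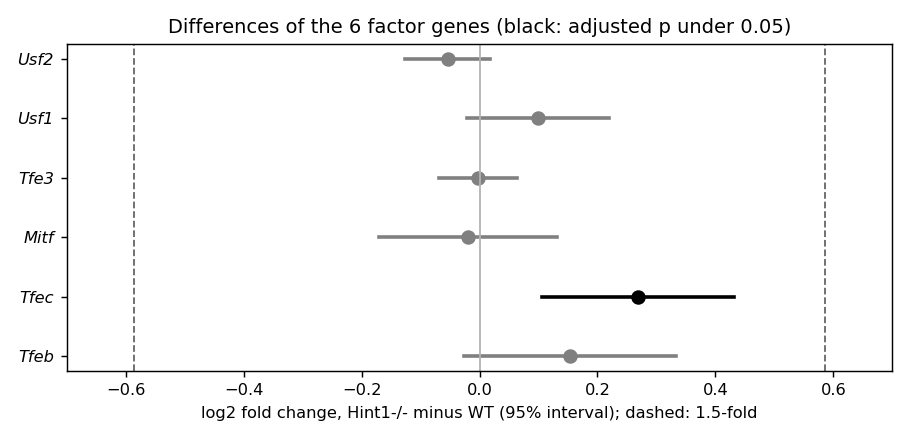
Difference between genotypes for each factor gene as log2 fold change, Hint1-/- minus WT (points), with its 95% interval (bars) and the study's 1.5-fold limits (dashed). The interval of Tfec, 0.11 to 0.43, is the one that leaves out 0, and all 6 lie inside the dashed lines.

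Per length, as CPM per kilobase of exon, the order of levels was the same in both genotypes. *Usf2* stood highest, at 31.7 ± 0.389 in WT and 30.5 ± 1.04 in *Hint1*-/- cells (SD, n = 4 each). *Tfe3* followed at 15.99 ± 0.393 and 15.96 ± 0.143, then *Usf1* at 7.53 ± 0.460 and 8.06 ± 0.339. *Mitf* came next at 3.12 ± 0.242 and 3.07 ± 0.301, with *Tfec* at 1.35 ± 0.0441 and 1.63 ± 0.107 and *Tfeb* lowest at 1.16 ± 0.0736 and 1.29 ± 0.0683. In neither genotype did the ranges of neighbouring genes in this order overlap. The closest pair was *Tfec* over *Tfeb*, with a ratio of means of 1.17 in WT and 1.26 in *Hint1*-/- cells, and these values rest on the annotated exon length, which need not be that of the transcripts in these cells.

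Within the MiT/TFE family, *Tfe3* made up most of the summed per-length level, 74.0% in WT and 72.7% in *Hint1*-/- cells. *Mitf* made up 14.4% and 13.99%, and *Tfeb* 5.36% and 5.87%. The share of *Tfec* ranged from 5.84% to 6.61% in WT and from 7.08% to 7.84% in *Hint1*-/- samples. The family sum itself was 21.6 ± 0.645 and 22.0 ± 0.314 CPM per kilobase, a difference within the spread between samples. The ratio of *Usf2* to *Usf1* per length was 4.04 to 4.58 in WT and 3.68 to 3.88 in *Hint1*-/- samples. These shares and ratios did not overlap between genotypes for *Tfec* and for the USF pair, and no test was made on them. The shares of *Mitf*, *Tfe3* and *Tfeb* did overlap. The *Tfec* share rests on the same counts as its call, and *Usf1* and *Usf2* each overlapped singly. Among single genes, 23.0% of all tested had no overlap, and how often ratios have none was not measured.

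**Figure D3:**
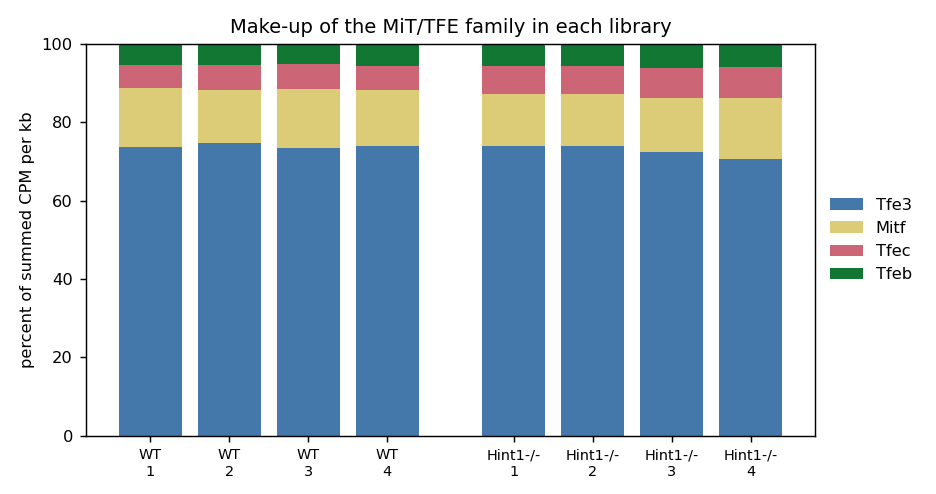
Share of Tfe3, Mitf, Tfec and Tfeb in the summed CPM per kilobase of the MiT/TFE family, 1 stacked bar per library (percent, axis from 0 to 100). Tfe3 fills 70.5 to 74.6% of every bar, and the Tfec band is 5.84 to 6.61% in WT and 7.08 to 7.84% in Hint1-/- bars.

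Among genes that act on MITF, 14 of a list of 16 were tested, and 1 rose and 4, *Hint1* included, fell. This is 35.7% called, against 21.5% of all tested genes. *Hint1* is the targeted gene, so its call was fixed by the design. *Kitl*, the ligand of the KIT receptor upstream of MITF, rose from 44.9 to 64.4 CPM (882 to 1014 counts in WT and 1259 to 1442 in *Hint1*-/- samples, log2 fold change 0.52, edgeR adjusted p = 3e-07). *Kit* itself was below the count filter. *Sox10* and *Pax3*, transcription factors that switch on *Mitf* in pigment cells, fell by 2.53 and 0.74 on the log2 scale (adjusted p = 6.2e-13 and 0.0451), from 240 to 266 counts to 41 to 48 for *Sox10*. *Pax3* held only 22.1 to 38.9 counts in WT and 11 to 22 in *Hint1*-/- samples, and the genotypes overlapped in CPM. The call of *Pax3* was lost under 6 alternatives, with adjusted p up to 0.156. *Rps6ka1*, a kinase that phosphorylates MITF, fell by 0.30. *Kars*, lysyl-tRNA synthetase, had a log2 fold change of -0.065 that did not pass the test (adjusted p = 0.18).

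*Sox10* also belongs to a list of melanocyte and Schwann cell markers. Of its 11 genes 9 were tested and 6 fell, all by more than 1.5-fold, where 1.49% of all tested genes did so. The summed level was 49.8 to 56.4 CPM in WT and 13.8 to 16.01 CPM in *Hint1*-/- samples. *Ngfr*, the low-affinity nerve growth factor receptor, fell by 2.73 and *Foxd3*, a neural crest factor, by 2.28 on the log2 scale. *Mitf* did not move with these genes, and its level of 19.3 CPM in WT compares with 12.2 CPM for *Sox10*. The melanocyte genes *Dct* and *Mlana* were below the count filter. *Tyr* and *Pmel*, pigment genes of melanocytes, were tested at 0.467 and 1.03 CPM in WT and did not pass, with log2 fold changes of -0.23 and -0.17 (adjusted p = 0.718 and 0.690). The part of these cells in the levels of *Mitf* was not tested.

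Of 20 MITF targets of pigment cells and of general kind, 10 were tested, 1 rose and 1 fell. The 20% called is near the 21.5% of all tested genes. *Met*, the hepatocyte growth factor receptor, rose by a log2 fold change of 0.20 (adjusted p = 0.0249), and *Slc24a5*, an ion exchanger of melanosomes, fell by 0.50. *Slc24a5* shares 39.5% of its exonic bases with *Myef2* on the opposite strand. The call of *Met* was lost with DESeq2 and without WT replicate 1, 3 or 4 or *Hint1*-/- replicate 1 or 2 (adjusted p = 0.0551 to 0.0818), which leaves 1 called.

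Of the MITF targets of osteoclasts and mast cells, 7 of 15 were tested, and 3 fell and none rose. This is 42.9% called, against 21.5% of all tested genes. *Dcstamp*, needed for osteoclast fusion, was counted 117 to 154 times in WT and 85 to 96 times in *Hint1*-/- samples and fell by 0.63 on the log2 scale (edgeR adjusted p = 0.000258). *Ctsk*, the collagen-degrading cathepsin of osteoclasts, fell by 0.20, and *Hpgds*, a prostaglandin D synthase, by 0.23. The call of *Hpgds* was lost without WT replicate 2 and without *Hint1*-/- replicate 1, 2 or 4 (adjusted p = 0.0583 to 0.0703). The 7 markers that fell in the macrophage and osteoclast list are genes of macrophages at large, and their part in these differences was not tested. *Acp5*, an osteoclast phosphatase, and *Oscar*, an osteoclast receptor, had log2 fold changes of 0.20 and -0.39 that did not pass the test. The mast cell marker list had a summed level of 1.11 to 1.62 CPM over all 8 samples, most of it from *Hdc*, histidine decarboxylase, and its mast cell proteases *Cpa3*, *Cma1*, *Mcpt4* and *Tpsb2* held at most 4 counts in any sample.

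The lysosomal genes of the CLEAR network (coordinated lysosomal expression and regulation), known targets of TFEB and TFE3, leaned lower in *Hint1*-/- cells. All 41 were tested, 14 fell and 2 rose, which is 39.0% called, against 10.2% lower and 11.2% higher among all tested genes. None passed 1.5-fold with edgeR, DESeq2 or limma-voom. The median log2 fold change of the 41 genes was -0.066, against 0.00031 over all tested genes. The number called was 10 without WT replicate 3, 9 without WT replicate 4, 10 without *Hint1*-/- replicate 1 and 9 without *Hint1*-/- replicate 3, and the median stayed between -0.079 and -0.056 over all 16 alternatives.

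*Ctsb*, cathepsin B, fell by 0.25 on the log2 scale, from 2268 to 1903 CPM (SE 0.036, edgeR adjusted p = 4.3e-05). *Cln3*, a lysosomal membrane protein, fell by 0.24 and *Gusb*, beta-glucuronidase, by 0.22. *Atp6v0a1*, a subunit of the proton pump, rose by a log2 fold change of 0.20. *Ctsb* shares 12.8% of its exonic bases with *Fdft1* on the opposite strand. Macrophages are rich in lysosomes, and their markers fell beside these genes, by a median of 0.32 on the log2 scale. Their part in the lysosomal result was not tested.

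The E-box itself was looked for in RefSeq promoter windows (GRCm38.p6, 250 bases before to 50 after each start). Of the 41 lysosomal genes 30 had a window and 18 of these, 60%, held CACGTG, against 8.09% of all 27025 genes with a window. The network was first defined in part by this motif, so that share is not independent evidence. Among the 18 genes with the motif 6 fell and none rose, and among the 12 without it 6 fell and 1 rose. The 6 that fell are shown because their start regions carry the letters that MiT/TFE and USF dimers read, with the E-box in capitals, 30 bases each, 5′ to 3′ on the strand of the gene. Some windows hold more than 1 E-box, of which 1 is shown. Only for *Lamp1* and *Sgsh* do the last 50 bases of the window also begin a transcript of the GENCODE M21 annotation. *Ctsa* and *Cln3* each have another window without the motif.
*Ctsa*, chr2:164833749-164833778, plus strand: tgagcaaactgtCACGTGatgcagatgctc
*Cln3*, chr7:126583368-126583397, minus strand: gcaaccctcaagCACGTGatggaaggctca
*Ctsd*, chr7:142387908-142387937, minus strand: tcgcccgcgtctCACGTGacccgttgaggg
*Lamp1*, chr8:13159088-13159117, plus strand: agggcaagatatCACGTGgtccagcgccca
*Sgsh*, chr11:119355522-119355551, minus strand: gggcctgccgtgCACGTGaccgtggggagc
*Atp6v1a*, chr16:44139373-44139402, minus strand: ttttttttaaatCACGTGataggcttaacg

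*Ctsa* and *Ctsd* encode the cathepsins A and D, *Lamp1* the main glycoprotein of the lysosomal membrane, *Sgsh* a sulfatase of heparan sulfate breakdown and *Atp6v1a* the catalytic subunit of the proton pump. On the log2 scale *Ctsa* fell by 0.15, *Ctsd* by 0.12, *Lamp1* by 0.12, *Sgsh* by 0.15 and *Atp6v1a* by 0.13. The calls of *Ctsd*, *Sgsh* and *Atp6v1a* were lost under 2, 4 and 2 alternatives. On the opposite strand *Sgsh* shares 21.6% of its exonic bases with *Card14*, *Ctsa* 10.5% with *Pltp* and 6.9% with *Neurl2*, *Lamp1* 9.3% with *Grtp1* and *Cln3* 7.6% with *Apobr*. A match of letters is a description and not a bound site.

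The autophagy and signalling genes of the network moved both ways. Of 25 genes 24 were tested, 5 rose and 3 fell, which is 33.3% called against 21.5% of all tested genes. *Hif1a*, the hypoxia-inducible factor, rose from 361 to 487 CPM, a log2 fold change of 0.43 with an SE of 0.038 (edgeR adjusted p = 1.4e-07). *Atg9a*, a membrane protein of the forming autophagosome, rose by 0.27 and *Ulk1*, the kinase that starts autophagy, by 0.19. *Fnip2*, a partner of folliculin, fell by 0.25, *Sqstm1*, the autophagy receptor p62, by 0.24 and *Becn1*, a subunit of the autophagy lipid kinase complex, by 0.14. *Becn1* shares 43.9% of its exonic bases with *Cntd1* and *Sqstm1* 17.3% with *Mrnip*, each on the opposite strand. *Fnip1*, a further folliculin partner, rose by 0.14, and its call was lost under 6 alternatives, DESeq2 included, with adjusted p up to 0.109. Both *Hif1a* and *Fnip1* hold an E-box, shown as above for contrast with the genes that fell.
*Hif1a*, chr12:73907720-73907749, plus strand: cacacagacaagCACGTGagcggggcagct
*Fnip1*, chr11:54438092-54438121, plus strand: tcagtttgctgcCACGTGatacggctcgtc

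Across all 1221 tested genes with an E-box in a window, 9.42% rose and 11.0% fell, which is 20.4% called, against 20.8% of the 10767 tested genes that had a window. For the factor genes themselves, 11 windows of 5 members were read, and none held CACGTG, the extended form TCACGTG or the M-box core TCATGTG on either strand. *Usf2* had no window. The extended E-box was found in 4.29% and the M-box core in 4.31% of all genes with a window, and every extended E-box is also an E-box.

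Of the genes of the nutrient control that holds TFEB, TFE3 and MITF in the cytoplasm, all 30 were tested, 2 rose and 3 fell. The 16.7% called is near the 21.5% of all tested genes. *Rraga*, a Rag GTPase that brings mTORC1 and TFEB to the lysosome, rose by a log2 fold change of 0.16, as did *Fnip1* by 0.14. *Fnip2* fell, *Lamtor1*, the anchor of the Rag GTPases, fell by 0.14, and *Sfn*, a 14-3-3 protein, fell by 0.44 from 65 to 71 counts to 41 to 55. *Mtor*, *Rptor* and *Flcn* (folliculin) had log2 fold changes of 0.050, 0.0099 and -0.095, none of which passed the test. *Lamtor1* shares 18.7% of its exonic bases with *Lrrc51* on the opposite strand. The number called was 3 without WT replicate 3 or without *Hint1*-/- replicate 2, and the calls of *Fnip1* and *Sfn* were lost in both cases. In all, *Fnip1* lost its call under 6 alternatives and *Sfn* under 3, with DESeq2 among them for each.

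Targets of USF were called in both directions. Of 21 genes 16 were tested, 5 rose and 3 fell, which is 50% called against 21.5% of all tested genes. *Apoe*, the lipoprotein component, was counted 1482 to 2008 times in WT and 2248 to 2764 times in *Hint1*-/- samples and rose by a log2 fold change of 0.55 (SE 0.073, edgeR adjusted p = 1.8e-05). *Brca2*, a DNA repair gene, rose by 0.23 and *Ccnb1*, cyclin B1, by 0.20. *Hmox1*, heme oxygenase, fell by 0.34 on the log2 scale, *Spp1*, osteopontin, by 0.28 from 9134 to 7531 CPM, and *Cdk4*, a cell cycle kinase, by 0.11. The call of *Cdk4* was lost under 5 alternatives, with adjusted p up to 0.102. *Cdk4* shares 19.7% of its exonic bases with *Tspan31* on the opposite strand. *Fasn*, fatty acid synthase and a classical USF target, had a log2 fold change of 0.11 that did not pass the test (adjusted p = 0.092). *Acaca*, a further lipid synthesis gene of the list, rose by 0.15 and was called (edgeR adjusted p = 0.0065). None of the 16 passed 1.5-fold with any of the 3 tools.

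Of 13 enzymes and factors that work with USF, edgeR, DESeq2 and limma-voom called 0, where edgeR called 21.5% of all tested genes. At an unadjusted p under 0.05 edgeR gave 3, the median log2 fold change was 0.043 (0.027 without *Hint1*-/- replicate 4) and the values ran from -0.063 to 0.18. The number called was 2 without WT replicate 2.

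The other bHLH-zip factors were called more often as higher than as lower. Of 16 genes 15 were tested, 5 rose and 1 fell, which is 40.0% called, against 11.2% higher and 10.2% lower among all tested genes. The median log2 fold change was 0.11, and 0.062 without *Hint1*-/- replicate 1. *Mxi1*, a MAX partner that opposes MYC, rose by a log2 fold change of 0.21, *Srebf2*, the regulator of cholesterol synthesis, by 0.17 from 187 to 211 CPM, and *Mlxip* (MondoA), a glucose sensor, by 0.17. *Mycn* fell by 0.24, from 2534 to 2998 counts to 2111 to 2458. *Myc* itself rose by a log2 fold change of 0.16, from 1250 to 1371 counts to 1447 to 1498 (edgeR adjusted p = 0.0038). *Max*, the shared partner of MYC and MXD proteins, had a log2 fold change of -0.025 that did not pass the test.

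**Figure D4:**
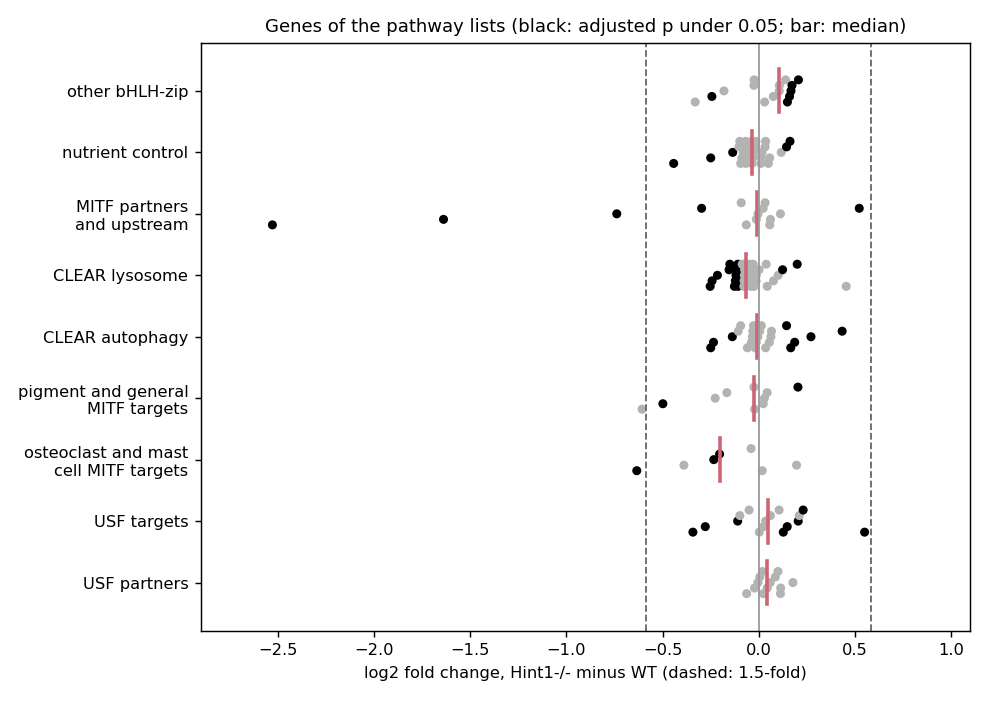
Log2 fold change, Hint1-/- minus WT, of every tested gene in the 9 pathway lists (points, black at an adjusted p under 0.05) with the median of each list (bar) and the 1.5-fold limits (dashed). The genes called outside the dashed lines are Hint1, Sox10 and Pax3 among the MITF partners and Dcstamp among the osteoclast targets.

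Markers of cell types that these cultures could hold were set beside these lists. Among all tested genes 11.2% rose and 10.2% fell. Of 9 smooth muscle markers 6 fell and 1 rose, with *Myh11*, the smooth muscle myosin heavy chain, lower by 1.54 on the log2 scale. *Acta2*, smooth muscle actin, was counted 15956 to 17855 times in WT and 11640 to 12332 times in *Hint1*-/- samples. By q-PCR the study reported *Acta2*, *Tagln* and *Cnn1* as higher in *Hint1*-/- cells under PDGF-BB, which for *Acta2* is opposite to these counts. The source of that difference was not tested. Of 7 fibroblast markers 3 rose and 1 fell, where *Dcn*, decorin, rose by a log2 fold change of 0.83 and *Dpt*, dermatopontin, fell by 0.79. Of 7 endothelial markers 6 were tested and edgeR, DESeq2 and limma-voom called 0, with 2 at an unadjusted p under 0.05 in edgeR and a summed level of 6.15 to 9.04 CPM over all 8 samples. The cultures thus carried smooth muscle, macrophage, fibroblast and melanocyte or Schwann cell markers. Each of these lists held genes whose levels differed between the genotypes. The part of cell type make-up in the differences of the factor genes was not tested.

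**Figure D5:**
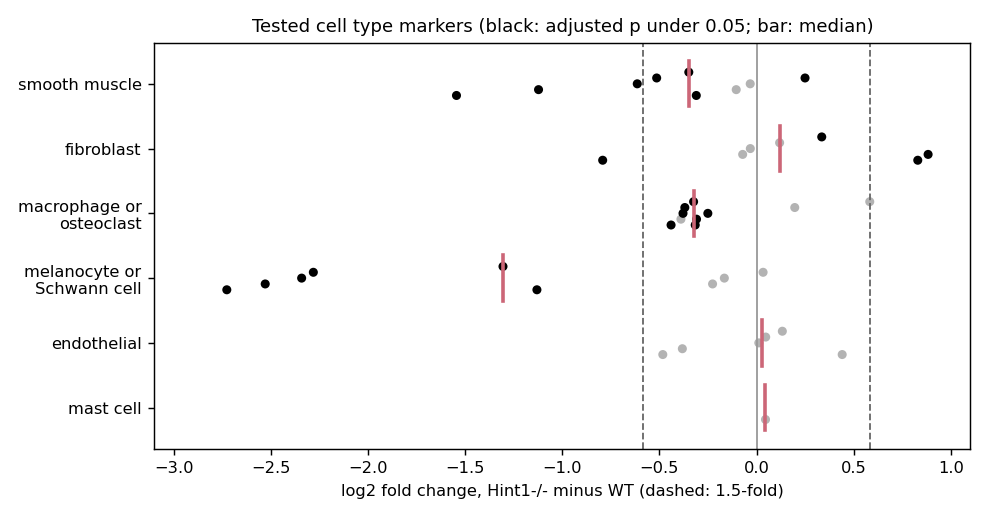
Log2 fold change, Hint1-/- minus WT, of the tested markers of 6 cell types (points, black at an adjusted p under 0.05) with the median of each list (bar) and the 1.5-fold limits (dashed). The melanocyte or Schwann cell and macrophage or osteoclast lists hold black points on the lower side only, and the endothelial and mast cell lists hold none.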

How the data were processed

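RNA of MASMCs was sequenced on a BGISEQ-500 in 50-base reads. The study's methods name HISAT2 and mm10, while the submitters' processing notes name Bowtie2, RSEM 1.3.1 and DESeq2 1.4.5; the annotation is not given in the sources used here. For each sample the authors deposited a table of estimated counts by gene symbol, which need not be whole because reads fitting several genes are split (67.3 to 67.8% of values were whole). They were rounded and tested in edgeR 4.0.16 (R 4.3.3) after filterByExpr and TMM, with glmQLFit and glmQLFTest for genotype, 4 against 4, no covariate. CPM used TMM-scaled library sizes, and length is the union of GENCODE M21 exons, the source of gene coordinates (mm10). Promoters were RefSeq windows. On simulated data for this comparison, 100% of 200 genes changed 2-fold among 13535 were recovered, with 8 other calls. The simulation gave all genes the same dispersion. Its changes were larger than the 1.21-fold of *Tfec*, so recovery of changes of that size was not measured.

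The named genes are the 6 members, *Hint1*, and in each list those past 1.5-fold and the 3 largest called changes in each direction with a mean of at least 50 counts. For a called member they include the 3 tested genes with the most similar profile. The sequences, and *Acta2*, *Max*, *Myc*, *Fasn*, *Acaca*, *Kars*, *Kit*, *Acp5*, *Oscar*, *C1qa*, *Hdc*, *Tyr*, *Pmel*, mast cell proteases, *Mtor*, *Rptor*, *Flcn*, *Dct* and *Mlana*, were added after values were seen. Some genes of the lists stand in their counts but are not reported here by name. Members and lists were chosen with earlier results of these data known. Alternatives were DESeq2 1.42.0, limma-voom 3.58.1, other scalings and filters, a replicate block and leaving out each sample.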

Additional observations from a re-analysis of the deposited data

Results flagged for a closer look

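In 6 of 122 groups of 4 samples examined (1 genotype for 1 gene or 1 library measure), 1 sample stood apart from the other 3, its gap to the nearest of them exceeding Dixon's 95% critical value as a share of the group's range. Chance gives about 1 in 20 such groups, or 6.1 here. Among the factor genes, *Mitf* was highest in *Hint1*-/- replicate 4, with 453 counts against 371 to 385 in the others (gap 0.8293 of the range). *Usf1* was lowest in WT replicate 2, with 403 counts against 449 to 458 (0.844). WT replicate 2 was also lowest for *Acta2*, with 15956 against 17467 to 17855 (0.837). *Hint1*-/- replicate 4 was lowest for *Apoe*, with 2248 against 2690 to 2764 (0.879), and highest for *Mlxip*, with 1515 against 1349 to 1368 (0.837). *Dcstamp* was highest in *Hint1*-/- replicate 1, with 96 against 85 to 86 (0.892).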

How the results depend on the processing

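Over 16 alternatives, *Tfeb*, *Usf1* and *Usf2* kept their direction and stayed uncalled, and *Hint1* stayed called. *Tfec* was no longer called with DESeq2 (log2 fold change 0.27, adjusted p = 0.0862) or without *Hint1*-/- replicate 4 (0.23, adjusted p = 0.0667), and leaving out each sample gave 0.23 to 0.30. Leaving out each sample gave -0.091 to 0.013 for *Mitf* and -0.017 to 0.012 for *Tfe3*, never called. The list counts called then ranged from 9 to 14 (CLEAR lysosome), 3 to 6 (nutrient control), 1 to 2 (pigment and general MITF targets, 1 with DESeq2) and 0 to 2 (USF partners). The replicate numbers did not pair the samples, since deviations of same-numbered samples correlated at -0.045 to 0.081 and 2 of 4 WT samples correlated best with their own number. With a replicate block 1 USF partner was called, the factor genes and *Hint1* kept their calls, and the other list counts stayed within 1.5 times. The total called ranged from 2258 to 3082. Upper-quartile scaling moved the median of all genes by -0.011. At 130 to 204 counts a sample, *Tfec* and *Tfeb* had the fewest counts and the largest SE of the members (0.077 and 0.085). The spread between samples was largest for *Mitf*, with an SD of 7.75% of the mean in WT and 9.79% in *Hint1*-/- cells.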

Other observations

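The tested genes whose 8 log2 CPM values, each gene centred on its own mean, lay closest to those of *Tfec* were *Zfp462* and *Zfp52*, zinc finger genes, and *Cit*, the citron kinase of cell division. Their root mean square differences from *Tfec* were 0.021, 0.030 and 0.036 log2 units over 8 samples. *Zfp462* was counted 851.6 to 916.5 times in WT and 996.9 to 1121 times in *Hint1*-/- samples. Because *Tfec* was matched on all 8 samples, these genes follow its genotype difference by construction.

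The 290 tested genes with the M-box core in a promoter window rose in 9.31% and fell in 14.1% of cases, which is 23.4% called, and the 9298 genes with none of the 3 motifs were called in 20.8%. Of the 14 pigment and general MITF targets with a window, 6 held the M-box core.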
